A study of Mus musculus with 6 samples.

Results

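The genes described here encode the prohormone convertases Pcsk1 and Pcsk2, the proteins that bind and restrain them (Pcsk1n and Scg5), carboxypeptidase E (Cpe), and the granins Chga, Chgb, Scg2, Scg3 and Vgf. They were taken by gene symbol from a table of read counts, which held all 10 of them among 45777 genes. All 10 passed the filter on low counts, which left 17874 genes to be tested. The genes were chosen by symbol with the fold changes between the groups in view, since earlier results of these data had listed Pcsk1 among genes with higher values. The differences between the groups are therefore given as a description.

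The RNA came from striatum of ICR mice, an outbred strain, aged 6 weeks, in 2 groups of 3 libraries. The methylphenidate-sired group came from sires given methylphenidate at 15 mg/kg subcutaneously for 21 days, and the saline-sired group from sires given saline at 10 mL/kg in the same way. The sires were 6 weeks old at the start and were mated with females that received no drug. The labels used here give a treatment of the sires and none of the offspring. Each group has 2 females and 1 male per the labels, while sources used here do not say how many sires or litters there were. P-values therefore measure only the spread between these samples, which may include related animals. Libraries carry the number of their column in the count table (2, 4 and 6 among the methylphenidate-sired ones, 3, 4 and 5 among the saline-sired ones), and their names give neither a labelled animal nor a sex. Expression values were not used to sex the libraries, so the sex of each is not given here.

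Neuropeptides are made as long precursors and are cut out of them inside dense-core vesicles. Pcsk1 and Pcsk2 are serine proteases that cut precursors after paired basic residues, and Cpe removes the basic residues that the cut leaves behind. Pcsk1n, also called proSAAS, inhibits Pcsk1, and Scg5 is a chaperone that Pcsk2 needs on its way to becoming active. Granins are acidic proteins that help form the vesicle core and are themselves cut into peptides. Medium spiny neurons, which make up most striatal neurons, use this machinery to make enkephalin, dynorphin and substance P.

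Total counts ranged from 32650664 to 33799383 per library in the methylphenidate-sired group and from 31360042 to 38844724 in the saline-sired group. Markers of medium spiny neurons were abundant in every library, at 1558, 1651 and 1376 CPM (counts per 1000000 counts of the library, after TMM scaling) for Ppp1r1b in the methylphenidate-sired group and 1652, 1898 and 1784 CPM in the saline-sired group, which fits the striatum label. On the first principal component, saline-sired libraries 3 and 4 were separate from the other 4, and that component held 28.3% of the variance. Values without both are given beside the genes whose fold change they move by over 1.5 times or turn in sign, which leaves 1 saline-sired library in those fits.

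The 10 genes together took between 0.363% and 0.378% of the counts of each methylphenidate-sired library and between 0.366% and 0.375% of each saline-sired library. Their summed level was 3642, 3851 and 3784 CPM in methylphenidate-sired libraries 2, 4 and 6, against 3667, 3673 and 3677 CPM in saline-sired libraries 3, 4 and 5. The 2 groups overlapped, and Cpe alone gave the largest part of each sum.

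Levels were compared between genes as CPM per kilobase of transcript, with the longest GENCODE transcript matched to the gene's RefSeq accessions as the length. Cpe was highest, at 690 ± 51.4 CPM per kb in the methylphenidate-sired group and 694 ± 35.7 in the saline-sired group (SD, n = 3 each). Scg5 was next at 307 ± 6.95 and 305 ± 2.39 CPM per kb in the same groups, and Pcsk1n followed at 145 ± 11.3 and 145 ± 5.54. These 3 genes did not overlap one another or any other gene of the set in any library. Scg2, Chgb, Vgf, Pcsk2 and Scg3 followed between 72.3 and 133 CPM per kb, and their ranges over the libraries overlapped, so their order was not resolved. Chga lay below them, between 38.0 and 52.6 CPM per kb. Pcsk1 was lowest, at 7.58 ± 0.382 in the methylphenidate-sired group and 5.56 ± 0.303 CPM per kb in the saline-sired group, so that the convertase Pcsk2 exceeded the convertase Pcsk1 by more than the spread of either gene in every library.

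**Figure D1:**
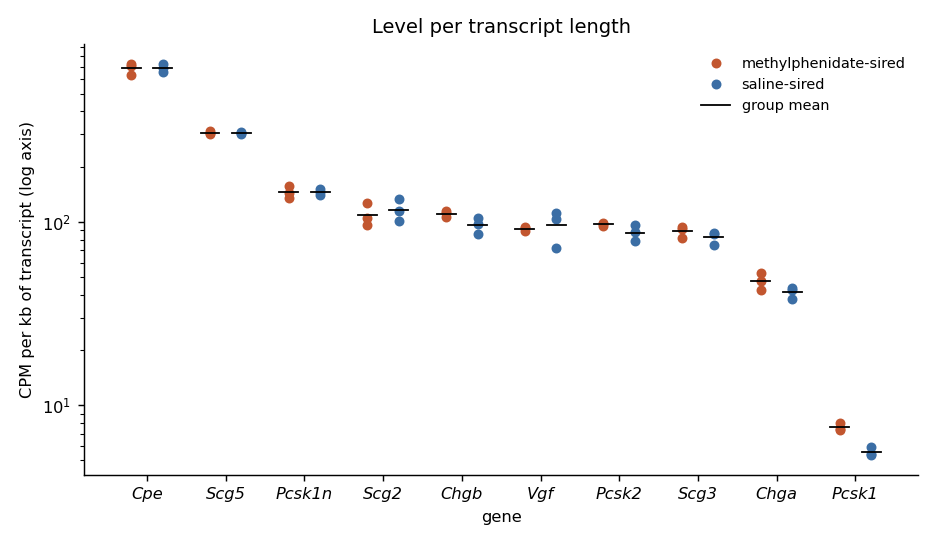
Level of each gene in CPM per kilobase of transcript, on a log axis, with 1 point per library (3 methylphenidate-sired, 3 saline-sired) and the group mean as a line. Cpe sits highest and Pcsk1 lowest in both groups, and Scg2, Chgb, Vgf, Pcsk2 and Scg3 overlap in the middle.

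The comparison of the groups addressed expression in the offspring of methylphenidate-treated against saline-treated sires. None of the 10 genes passed the edgeR quasi-likelihood test at an adjusted p under 0.05, and over all genes 0.0224% passed, each of them lower in the methylphenidate-sired group. At an unadjusted p under 0.05 there were 2 of the 10, Pcsk1 and Chgb, against 9.02% of all genes (5.07% with a positive and 3.95% with a negative fold change). DESeq2 called 1 of the 10, Pcsk1, against 1.25% of the genes to which it gave an adjusted p (0.972% with a positive fold change). The log2 fold changes (methylphenidate-sired minus saline-sired) ran from -0.10 to 0.45 with a median of 0.06, beside a median of -0.01 over all genes tested. Positive values were found for 6 of the 10 genes, against 47% of all genes, and this count ran from 5 to 9 over the alternative settings. In Pcsk1 and Chgb every methylphenidate-sired library exceeded every saline-sired library, as in 7.84% of all genes, and in none of the 10 was every methylphenidate-sired library below, as in 7.01% of all genes.

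**Figure D2:**
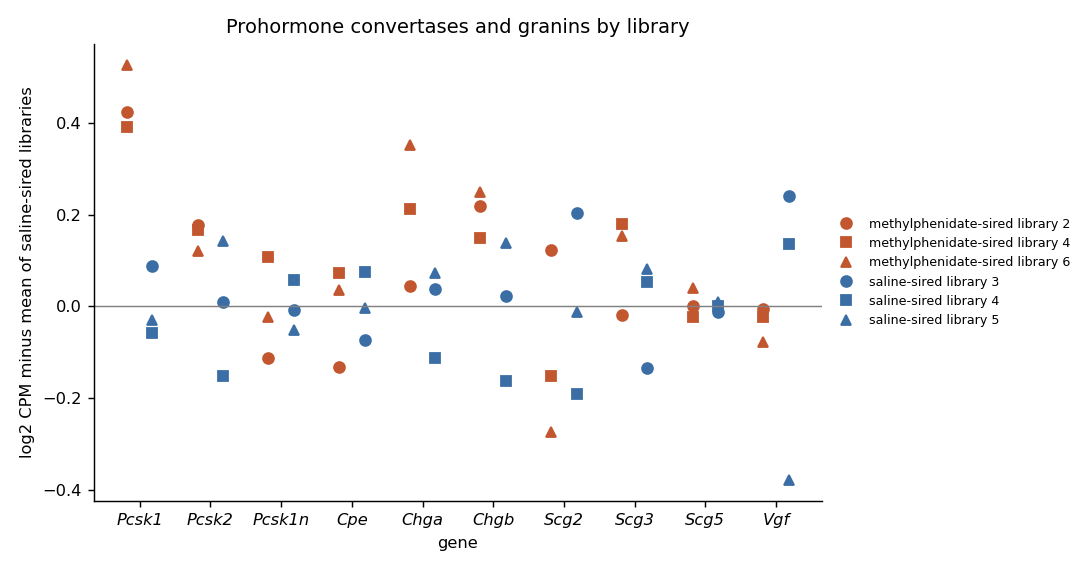
Log2 CPM of each gene in each library, minus the mean of the saline-sired libraries, with methylphenidate-sired libraries to the left of saline-sired ones. Pcsk1 has the widest gap between the groups, Chgb a narrow one, and the groups overlap in the other 8 genes.

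Among the convertases, Pcsk1 had 1234, 1173 and 1365 counts in methylphenidate-sired libraries 2, 4 and 6, and 1182, 856 and 855 counts in saline-sired libraries 3, 4 and 5. Scaled to library size this was 37.6, 36.7 and 40.4 CPM in the methylphenidate-sired group, against 29.8, 26.9 and 27.4 CPM in the saline-sired group. The lowest methylphenidate-sired library lay above the highest saline-sired one by more than the range within either group. The log2 fold change was 0.45 (SE 0.08, 95% interval 0.27 to 0.62), a level 1.36 times as high, which did not pass the edgeR test over all genes (adjusted p = 0.343) and did pass with DESeq2 (adjusted p = 0.00222). Leaving out each library in turn gave values between 0.41 and 0.49, and the edgeR adjusted p then ran from 0.114 to 0.818. Without saline-sired libraries 3 and 4 the value was 0.48.

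Pcsk2 had 466, 462 and 447 CPM in methylphenidate-sired libraries 2, 4 and 6, against 414, 370 and 454 CPM in saline-sired libraries 3, 4 and 5. Saline-sired library 5 lay among the methylphenidate-sired libraries and library 4 was lowest. The log2 fold change was 0.15 (SE 0.08, 95% interval -0.03 to 0.33, edgeR adjusted p = 0.618). It came to 0.08 when saline-sired library 4 was left out and to 0.24 when saline-sired library 5 was. With libraries 3 and 4 both left out it was 0.01, so the size of the Pcsk2 difference rested on those libraries. In GENCODE, exons of Pcsk2 overlap those of antisense genes over 359 of 7910 nucleotides, and strand use in counting is not stated. The antisense gene Pcsk2os1 held at most 163 counts in a library, against at least 11785 for Pcsk2.

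The convertases' binding partners stayed close to the same level in both groups. Pcsk1n had 295, 344 and 314 CPM in methylphenidate-sired libraries 2, 4 and 6, and 317, 332 and 308 CPM in saline-sired libraries 3, 4 and 5. Its log2 fold change was -0.01 (SE 0.07, 95% interval -0.17 to 0.16, edgeR adjusted p = 0.988), and it turned positive without methylphenidate-sired library 2 (0.060) or 6 (0.0025), without saline-sired library 4 (0.023), or with saline-sired libraries 3 and 4 both left out (0.045). Exons of Pcsk1n overlap Eras on the other strand over 135 nucleotides, and Eras held 0 counts in every library. Scg5 was the steadiest gene of the set, at 369, 363 and 379 CPM in the methylphenidate-sired group and 366, 369 and 371 CPM in the saline-sired group. Its log2 fold change was 0.01 (SE 0.06, 95% interval -0.12 to 0.13, edgeR adjusted p = 0.984), and it turned negative without methylphenidate-sired library 6 (-0.010) or saline-sired library 3 (-0.0030), or with saline-sired libraries 3 and 4 both left out (-0.0038).

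Count ratios within a library do not depend on scaling between libraries. For each 100 counts of its inhibitor Pcsk1n, Pcsk1 had 12.8, 10.7 and 12.9 counts in methylphenidate-sired libraries 2, 4 and 6, and 9.37, 8.10 and 8.91 counts in saline-sired libraries 3, 4 and 5. The groups did not overlap. Per 100 counts of Pcsk2, Pcsk1 had 8.07, 7.95 and 9.03 counts in the methylphenidate-sired libraries against 7.19, 7.26 and 6.04 in the saline-sired ones, again without overlap. Pcsk2 per 100 counts of its chaperone Scg5 came to 124 ± 5.07 in the methylphenidate-sired group and 112 ± 11.1 in the saline-sired group (SD, n = 3 each), and the groups overlapped. These ratios were chosen after the values had been seen and rest on the same differences as the fold changes.

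**Figure D3:**
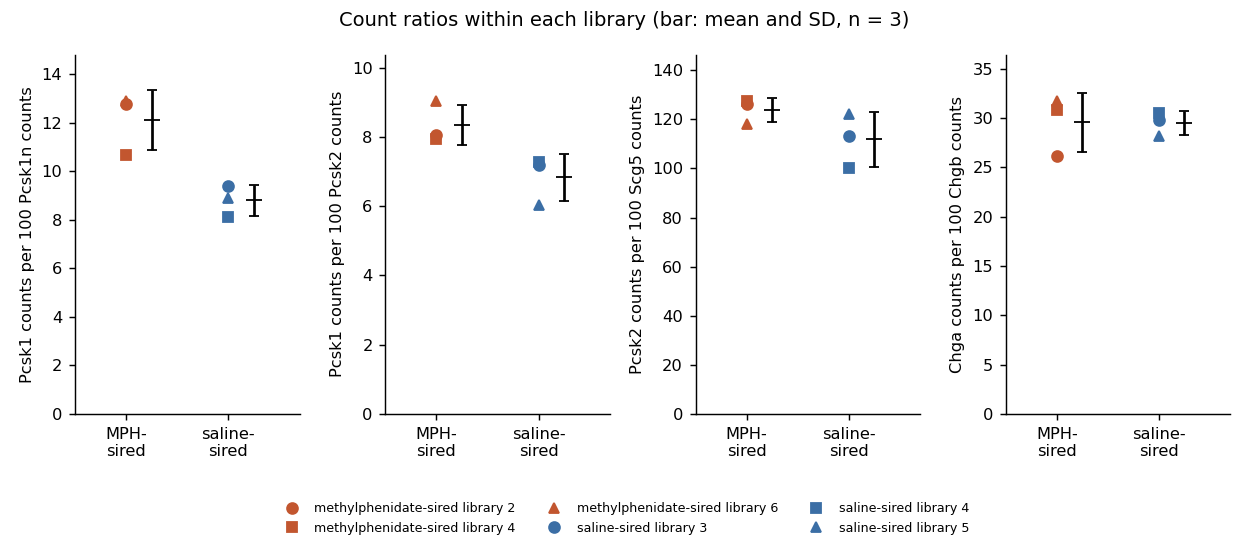
Counts of 1 gene per 100 counts of another within each library, with the mean and SD of each group (n = 3; MPH-sired, methylphenidate-sired). The groups separate for Pcsk1 per Pcsk1n and Pcsk1 per Pcsk2, and overlap for Pcsk2 per Scg5 and Chga per Chgb.

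Cpe, which trims the peptides after the convertase cut, had 1338, 1543 and 1504 CPM in methylphenidate-sired libraries 2, 4 and 6, against 1395, 1546 and 1464 CPM in saline-sired libraries 3, 4 and 5. The groups overlapped almost fully. Its log2 fold change was -0.01 (SE 0.07, 95% interval -0.18 to 0.16, edgeR adjusted p = 0.989). It turned positive when methylphenidate-sired library 2 (0.069) or saline-sired library 4 (0.032) or 5 (0.0043) was left out, and it was -0.0030 with saline-sired libraries 3 and 4 both left out.

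The chromogranins, the main acidic proteins of the vesicle core, had positive fold changes of like size. Chgb had 306, 291 and 312 CPM in methylphenidate-sired libraries 2, 4 and 6, against 267, 234 and 289.1 CPM in saline-sired libraries 3, 4 and 5. The groups did not overlap, although saline-sired library 5 came within 2 CPM of the lowest methylphenidate-sired one. The log2 fold change was 0.20 (SE 0.08, 95% interval 0.01 to 0.39, edgeR adjusted p = 0.517). Leaving out saline-sired library 4 gave 0.12, and leaving out libraries 3 and 4 together gave 0.07. Chga had 79.9, 89.9 and 99.0 CPM in the methylphenidate-sired libraries, against 79.6, 71.7 and 81.6 CPM in the saline-sired ones. Methylphenidate-sired library 2 lay between the saline-sired values, so the groups overlapped. The log2 fold change of Chga was 0.21 (SE 0.09, 95% interval 0 to 0.41, edgeR adjusted p = 0.554). It was 0.13 without methylphenidate-sired library 6 and also 0.13 with saline-sired libraries 3 and 4 both left out. Before adjustment the edgeR p was 0.04 for Chgb and, after rounding, 0.05 for Chga, so the 2 genes lay on either side of the cut at 0.05. Chga per 100 counts of Chgb came to 29.6 ± 3.01 in the methylphenidate-sired group and 29.5 ± 1.20 in the saline-sired group (SD, n = 3 each).

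The secretogranins Scg2 and Scg3 and the neurotrophin-inducible Vgf overlapped between the groups. Scg2, the precursor of secretoneurin, had 318, 262 and 241 CPM in methylphenidate-sired libraries 2, 4 and 6, and 336, 255 and 289.1 CPM in saline-sired libraries 3, 4 and 5. Both groups were widely spread, with a log2 fold change of -0.10 (SE 0.13, 95% interval -0.39 to 0.19, edgeR adjusted p = 0.845) that came to 0.0044 without saline-sired library 3. It was -0.21, -0.06 and -0.02 when methylphenidate-sired library 2, 4 or 6 was left out, and -0.19 without saline-sired library 4. Scg3, which binds Chga at the vesicle membrane, had 194, 223 and 219 CPM in the methylphenidate-sired group and 179, 204 and 208 CPM in the saline-sired group. Its log2 fold change was 0.11 (SE 0.08, 95% interval -0.08 to 0.29, edgeR adjusted p = 0.732), and single libraries moved it, to 0.18 without methylphenidate-sired library 2, to 0.04 without saline-sired library 3 and to 0.16 without saline-sired library 5. With saline-sired libraries 3 and 4 both left out it was 0.03.

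Vgf, which is induced by neurotrophins and by activity, showed the largest ratio of SDs between the groups among the 10 genes. It had 239, 236 and 227 CPM in methylphenidate-sired libraries 2, 4 and 6, and 284, 264 and 185 CPM in saline-sired libraries 3, 4 and 5. The methylphenidate-sired values lay inside the range of the saline-sired ones. The SD was 6.13 CPM in the methylphenidate-sired group and 52.5 CPM in the saline-sired group, which was not tested with 3 libraries each. The log2 fold change was -0.06 (SE 0.14, 95% interval -0.38 to 0.26, edgeR adjusted p = 0.930). Leaving out saline-sired library 5 gave -0.21, leaving out library 3 gave 0.06, leaving out library 4 gave 9.7e-05, and leaving out libraries 3 and 4 together gave 0.34.

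Because Pcsk1 and several granins are known targets of cyclic AMP signalling, their promoters were searched for the cyclic AMP response element TGACGTCA (8 bases) and its shorter form TGACG (5 bases), on both strands. The windows run from 250 bases before to 50 bases after the start of transcription, from RefSeq (GRCm38.p6), and 8 of the 10 genes were matched, all but Cpe and Vgf. The longer motif, which contains the shorter form on both strands, was found in 3 of the 8, Pcsk1, Chgb and Scg2, and in 1.79% of all 32851 promoter windows. The shorter motif was found in 7 of the 8, all but Pcsk1n, and in 20.8% of all windows. Pcsk2, Scg3, Scg5 and Chga held only the shorter form. The stretches of 30 bases around the motif are shown for the 3 genes with the longer form and, as an example of the shorter, for Chga. They run 5′ to 3′ on the strand of the gene, with the motif in capitals.
Pcsk1 (chr13:75089768-75089797, plus strand): ccaggtagatcTGACGTCAagagatggctt
Chgb (chr2:132781559-132781588, plus strand): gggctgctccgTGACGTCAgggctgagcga
Scg2 (chr1:79440076-79440105, minus strand): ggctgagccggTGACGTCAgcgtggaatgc
Chga (chr12:102554885-102554914, plus strand): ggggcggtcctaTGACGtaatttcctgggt

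The motif began 78 bases before the start used by the promoter table in Pcsk1, 72 in Chgb, 68 in Scg2 and 44 in Chga. For Pcsk1 that start is not the outermost one, since the gene's RefSeq span begins further upstream, at chr13 position 75089420, and the motif lies inside that span. A second TGACG stood 50 bases before the start in Pcsk1. The stretches of Chgb and Scg2 lie in exons of longer GENCODE transcripts of the same genes, and those of Pcsk1 and Chga in no annotated exon. The genes with the longer motif had log2 fold changes of 0.45 (SE 0.08) for Pcsk1, 0.20 (SE 0.08) for Chgb and -0.10 (SE 0.13) for Scg2. The sign of the Scg2 value was not resolved, since it came to 0.0044 without saline-sired library 3. The part of the motif in these values was not tested. A match describes these letters only.

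Levels of cell type markers differed between the libraries beside these values. The 13 cortical excitatory neuron markers summed to between 1555 and 1719 CPM in the methylphenidate-sired libraries, and to 1000, 710 and 1304 CPM in saline-sired libraries 3, 4 and 5. All 13 had positive log2 fold changes with a median of 0.84, beside 47% of all genes with a positive one, and 11 had an unadjusted p under 0.05, beside 9.02% of all genes. None of the 13 passed the edgeR test over all genes, DESeq2 called 3 (Nptx1, Neurod2 and Mef2c), beside 1.25% of all genes, and none was at 0 counts throughout. Saline-sired library 4, lowest in this sum, was also lowest for Pcsk1, Pcsk2, Chga and Chgb, and saline-sired library 5, highest of the saline-sired group in this sum, was highest of that group for Pcsk2, Chga and Chgb. For Pcsk1 the highest saline-sired library was 3. The 10 general neuron markers summed to between 6954 and 7279 CPM in the methylphenidate-sired libraries and between 5814 and 6681 CPM in the saline-sired ones, with 10 of 10 fold changes positive, 4 at an unadjusted p under 0.05 and 2 called by DESeq2. The 12 medium spiny neuron markers ran the other way, between 8355 and 9317 CPM in the methylphenidate-sired group and between 9737 and 10590 CPM in the saline-sired group, with negative log2 fold changes in all 12 and a median of -0.20. Of these 12, 8 had an unadjusted p under 0.05, DESeq2 called 3 and edgeR 0. Interneuron and astrocyte markers, 12 and 10 genes, overlapped between the groups in their sums, with medians of -0.06 and -0.01. Gad1 and Gad2 gave most of the interneuron sum. Medium spiny neurons also express both genes, so that sum does not describe interneurons alone. The means of Gad1 and Gad2 were 572 and 457 CPM in the methylphenidate-sired group and 605 and 466 CPM in the saline-sired group. Of the interneuron markers 3 had an unadjusted p under 0.05, with log2 fold changes of 0.92 for Vip, 0.80 for Cck and -0.33 for Chat. In each of these 3 the groups did not overlap, as in 14.8% of all genes. Of the astrocyte markers 0 had such a p. The part of these differences in the values of Pcsk1 and Chgb was not tested, and in bulk tissue fewer cells of a type and less RNA per cell cannot be told apart.

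**Figure D4:**
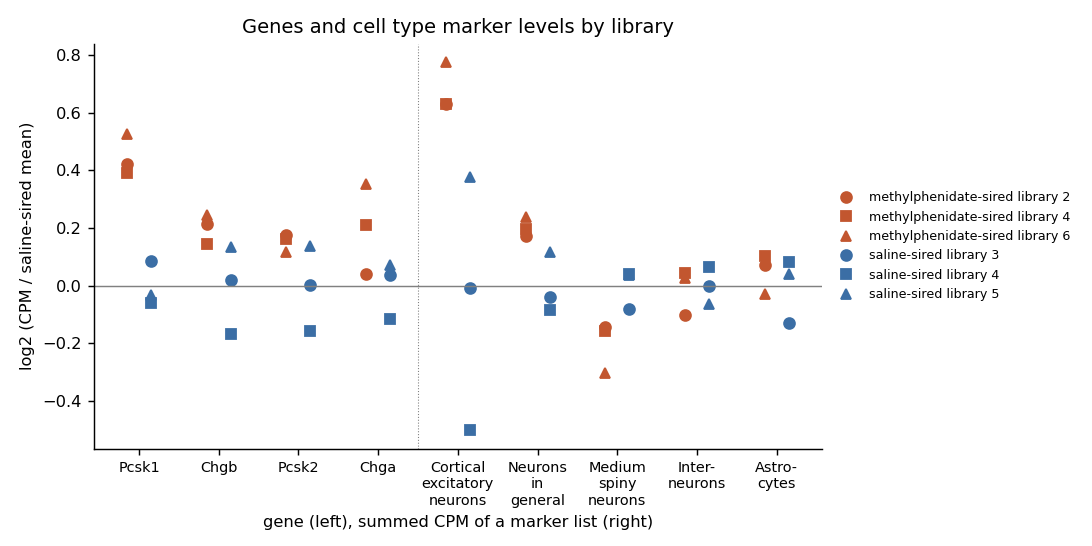
Log2 ratio of each library to the mean of the saline-sired libraries, for the CPM of 4 genes (left of the dotted line) and the summed CPM of marker lists (right of it), with methylphenidate-sired libraries to the left of saline-sired ones. Of the marker sums plotted, the cortical one spans the widest range on the log2 scale. It runs from 710 CPM in saline-sired library 4 to 1719 CPM in methylphenidate-sired library 6.

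Markers of other tissues were also followed, since pituitary and hypothalamus hold much of this machinery. The 10 pituitary and hypothalamic hormone genes, of which 3 passed the filter on low counts, summed to 1.43, 1.31 and 1.86 CPM in methylphenidate-sired libraries 2, 4 and 6, against 1.38, 48.8 and 3.88 CPM in saline-sired libraries 3, 4 and 5. Saline-sired library 4 stood apart through Gh, which encodes growth hormone, at 1229 counts (38.6 CPM), and Prl, which encodes prolactin, at 135 counts (4.24 CPM). In the other 5 libraries Gh held at most 6 counts and Prl at most 9. Hcrt and Agrp were at 0 counts in every library. Saline-sired library 4 was the lowest library for Pcsk1, Pcsk2, Chga and Chgb, whose log2 fold changes without it were 0.42, 0.08, 0.15 and 0.12, and the part of this pituitary signal in the values of those genes was not tested. The 13 choroid plexus markers, 12 of them tested, summed to 263, 370 and 363 CPM in methylphenidate-sired libraries 2, 4 and 6, against 3157, 901.5 and 223 CPM in saline-sired libraries 3, 4 and 5. Saline-sired library 3, highest in that sum, was also the highest library for Scg2 and Vgf, and the part of that difference in their values was not tested.

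Peptide precursors and other secreted proteins were followed as a list of 26, of which 25 were tested. Whether the convertases cut each of them was not examined. None passed the edgeR test over all genes, and 4 reached an unadjusted p under 0.05 (2 positive, 2 negative), beside 9.02% of all genes. DESeq2 called 1, Tac1, beside 1.25% of the genes given an adjusted p, and the median log2 fold change was 0.02. In 4 genes every methylphenidate-sired library lay above every saline-sired one, as in 7.84% of all genes. In 3 every one lay below, as in 7.01% of all genes. Penk, the enkephalin precursor and the most abundant of them, had 1161, 1181 and 1098 CPM in methylphenidate-sired libraries 2, 4 and 6, against 1289, 1266 and 1223 CPM in the saline-sired libraries. The groups did not overlap, with a log2 difference of -0.14 (SE 0.06) and an edgeR adjusted p of 0.554. Tac1, the substance P precursor, had 144, 127 and 122 CPM in the methylphenidate-sired group and 176, 164 and 152 CPM in the saline-sired group (log2 fold change -0.32 with SE 0.08, and edgeR adjusted p = 0.420). Penk and Tac1 also stand in the medium spiny neuron list. The 2 positive genes at an unadjusted p under 0.05 were Cck, at 0.80 on the log2 scale (SE 0.29), and Vip, at 0.92 (SE 0.35). The groups did not overlap in either, nor in Bdnf, at 0.93 (SE 0.44), and Adcyap1, at 1.10 (SE 0.66). Pomc, at 0.669 ± 0.188 CPM in the methylphenidate-sired group and 1.65 ± 0.719 in the saline-sired group (SD, n = 3 each), differed by -1.29 on the log2 scale (SE 0.39; edgeR adjusted p = 0.457). Pomc was of low level, with between 17 and 78 counts per library, and DESeq2 gave it no adjusted p. It also stands in the pituitary and hypothalamic list, and its 78 counts were in saline-sired library 4, the library with the Gh and Prl counts.

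Of 18 other proteases and enzymes of peptide maturation, 17 were tested and none passed the edgeR test. DESeq2 called 0, beside 1.25% of the genes given an adjusted p, and the median log2 fold change was -0.06. In 3 every methylphenidate-sired library lay below every saline-sired one, as in 7.01% of all genes, and in 0 above, as in 7.84%. There were 2 at an unadjusted p under 0.05, both negative, beside 9.02% of all genes. They were Mbtps1, a Golgi protease of the same wider family as the convertases, at -0.20 on the log2 scale (SE 0.07), and Ece2, an endothelin-converting enzyme, at -0.28 (SE 0.11). Pam, which amidates peptide ends after Cpe has acted, was at 167 ± 17.0 CPM in the methylphenidate-sired group and 163 ± 15.7 CPM in the saline-sired group (SD, n = 3 each; log2 fold change 0.03, edgeR adjusted p = 0.945). For Ctsb, a lysosomal protease, the log2 fold change was -0.04 (SE 0.07).

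The list of dense-core vesicle formation and release had 30 genes, all tested, of which 24 had positive log2 fold changes, beside 47% of all genes, with a median of 0.07. None passed the edgeR test, and 5 reached an unadjusted p under 0.05 (3 positive), beside 9.02% of all genes. The negative ones were Baiap3, at -0.54 on the log2 scale (SE 0.22), and Syt9, at -0.47 (SE 0.16). DESeq2 called 2, Cadps and Doc2a, beside 1.25% of the genes given an adjusted p. In 10 genes every methylphenidate-sired library lay above every saline-sired one, as in 7.84% of all genes, and in 1 every one lay below, as in 7.01% of all genes. Cadps, which primes dense-core vesicles for release, had 219, 212 and 244 CPM in methylphenidate-sired libraries 2, 4 and 6, against 174, 182 and 189 CPM in the saline-sired libraries. Its log2 fold change was 0.31 (SE 0.07, edgeR adjusted p = 0.400). Doc2a, a calcium sensor of release, had 16.1, 15.5 and 17.7 CPM in the methylphenidate-sired group against 9.99, 5.87 and 12.0 CPM in the saline-sired group (log2 fold change 0.82 with SE 0.23, and edgeR adjusted p = 0.445). For both genes the groups did not overlap, as for the cortical marker sum. The log2 fold change was 0.11 (SE 0.06) for Kif1a, the motor that carries these vesicles, and 0.004 (SE 0.07) for Ptprn, a membrane protein of the vesicle.

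Of 14 peptide-degrading enzymes none passed the edgeR test, and 4 reached an unadjusted p under 0.05 (3 positive), beside 9.02% of all genes. DESeq2 called 0, beside 1.25% of the genes given an adjusted p, and the median log2 fold change was 0.06. In 6 every methylphenidate-sired library lay above every saline-sired one, as in 7.84% of all genes. In 1 every one lay below, as in 7.01% of all genes. Dpp4, a dipeptidyl peptidase of low level here, had 2.33 ± 0.121 CPM in the methylphenidate-sired group and 1.13 ± 0.278 in the saline-sired group (SD, n = 3 each; log2 fold change 1.05 with SE 0.25, and edgeR adjusted p = 0.412). Lnpep, an aminopeptidase, had 0.37 (SE 0.12). The abundant Npepps and Mme, which encodes the enkephalin-degrading neprilysin, had 0.01 (SE 0.06) and -0.05 (SE 0.15).

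Of 14 cyclic AMP and activity factors none passed the edgeR test. An unadjusted p under 0.05 was reached by 4 (3 positive), beside 9.02% of all genes. DESeq2 called 0, beside 1.25% of the genes given an adjusted p, and the median log2 fold change was 0.11. In 2 every methylphenidate-sired library lay above every saline-sired one, as in 7.84% of all genes. In 1 every one lay below, as in 7.01% of all genes. Arc, an activity-induced gene, had 174, 271 and 133 CPM in methylphenidate-sired libraries 2, 4 and 6, against 49.9, 132 and 75.9 CPM in saline-sired libraries 3, 4 and 5 (log2 fold change 1.17 with SE 0.36, and edgeR adjusted p = 0.458). Egr1, another, had 0.68 (SE 0.27, edgeR adjusted p = 0.502). The CREB coactivators Crtc1 and Crtc2 had -0.11 (SE 0.07) and -0.22 (SE 0.08). Arc and Egr1 were highest in methylphenidate-sired library 4. Pcsk1 had 36.7 CPM there, close to the 37.6 CPM of library 2, and 40.4 CPM in library 6. A link between these genes was not tested.

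Patterns over the 6 libraries were also set beside one another, as Pearson r of log2 CPM and as a description of 6 points that share tissue make-up and scaling. Within the set, Pcsk2 and Chgb were most alike (r = 0.94), and Scg2 and Scg3 least (r = -0.87). Among 10216 other genes of average log2 CPM of at least 3, those most like Pcsk1 were Lsm11 (r = 0.995), Zfp282 (0.992), Reep5 (0.991), Pitpna (0.982) and Hmgcs1 (0.980), and 160 genes reached r = 0.9. Those most like Vgf were Ttc27 (0.988), Aph1a (0.985), Nedd8 (0.984), H1f0 (0.984) and Psen2 (0.981), with 76 genes at r = 0.9 or above. Those most like Cpe were Cct4 (0.993), Kcnj16 (0.973), Stk24 (0.972), Mff (0.972) and Plekhf2 (0.972), with 77. Lsm11 had a log2 fold change of 0.76, and the other 4 genes most like Pcsk1 had between 0.19 and 0.22.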

How the data were processed

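bcl2fastq 2.20.0, Trimmomatic, HISAT2 2.1.0, StringTie 2.1.3b and the build mm10 are named in the submitters' processing notes. No source used here states their order, settings or use of strand. Values analysed are whole-number read counts per RefSeq gene as deposited by the authors, with no normalization. A further 12 FPKM and TPM columns were left out, because their names give a group and no labelled animal and 1 measure was kept.

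Counts were scaled by TMM and compared in edgeR 4.0.16 under R 4.3.3 (glmQLFTest) after filterByExpr, with Benjamini-Hochberg adjustment over 17874 genes and a threshold of 0.05. The SE is the absolute log2 fold change over the root of F, and 95% intervals come from it with 8.3 degrees of freedom. DESeq2 1.42.0 ran on the same genes and gave no adjusted p to 3471. Log2 CPM for patterns used a prior count of 2. The edgeR step was tested on simulated counts.

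The members and lists were chosen with earlier results of these data known. All 10 members are named, and of each list the genes past the test, otherwise the 2 of lowest p and the 2 of highest level. Some genes, such as Cck, Vip, Bdnf and Adcyap1, are named beyond this rule because counts given for their lists include them. Patterns were compared for Pcsk1, Vgf and Cpe, naming 5 genes each and leaving out predicted genes. Near-identical copies (at least 95% identity over 200 nucleotides, blastn 2.17.0, GENCODE M21) were found for no member beyond the antisense Pcsk2os1. Protein sequences, which had been planned, were not used here.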

Additional observations from a re-analysis of the deposited data

How the results depend on the processing

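Over 11 alternatives and 10 genes, 92 of 110 fold changes kept their sign and their side of the threshold, 1 newly passed (Pcsk1 with DESeq2) and 17 changed sign, all in Pcsk1n, Cpe, Scg5, Scg2 and Vgf, whose values are close to 0 beside their SE. With each library left out in turn, log2 fold changes ran from -0.055 to 0.060 for Pcsk1n, from -0.046 to 0.069 for Cpe, from -0.010 to 0.035 for Scg5, from -0.21 to 0.0044 for Scg2 and from -0.21 to 0.059 for Vgf. Upper-quartile scaling gave -0.0050 for Scg5. No filter on low counts gave 0.0046 for Pcsk1n and 0.0051 for Cpe. Without saline-sired libraries 3 and 4, which leaves 1 library assumed to vary like the other group, Pcsk1n had 0.045, Scg5 -0.0038 and Vgf 0.34, and of the genes that kept their sign Pcsk2 had 0.013, Scg3 0.027, Chga 0.13 and Chgb 0.068. Genes past the test numbered 4 with edgeR, 1 to 4 with each library left out, 0 without saline-sired libraries 3 and 4 and 180 with DESeq2, among which was 1 of the 10 genes here. With edgeR 0 of the 10 passed in each alternative. The cause of these changes was not tested beyond the fewer samples. No paired analysis was possible because the columns share only the number 4 between the groups and no column is tied to a labelled animal. With 3 libraries per group, the SE ran from 0.055 for Scg5 to 0.141 for Vgf among the 10 genes. These SEs take the libraries as independent, while the numbers of sires and litters are not known.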
